A study of Mus musculus with 6 samples.

Results

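The genes described here are the protein-coding genes whose symbols start with Kcn, the mouse names of potassium channel subunits and their auxiliary proteins. There were 92 of them among 42747 gene rows, and 76 had enough reads to be tested. The family was chosen by the counts of 1 member, Kcng1, which were much higher in the cKO testes, so the difference of Kcng1 itself is described without a test, and the question was whether other channel genes moved too. RNA came from whole testes of mouse embryos at E16.5 (days of embryonic development), 3 labelled WT and 3 labelled cKO, each from a separate mouse. The series title places the loss of CK1α, the kinase encoded by Csnk1a1, in Sertoli cells, so cKO is taken here to mean a conditional knockout. Which Cre line and floxed allele were used, and the strain and alleles of the WT mice, the labels do not say.

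Potassium channels let potassium ions leave or enter a cell along their gradient and so set its resting voltage and shape its electrical and secretory responses. The largest branch is the voltage-gated (Kv) one, whose pore is built from subunits that open when the membrane depolarises. Within it, the so-called silent subunits of the Kcnf, Kcng, Kcns and Kcnv genes make no channel alone and assemble with subunits of the Kv2 group, among them Kcnb2, whose behaviour they modify. Other branches are the ether-à-go-go relatives (Kcnh), the Kcnq channels, channels opened by calcium or sodium (Kcnm, Kcnn, Kcnt), inward rectifiers (Kcnj) and two-pore-domain leak channels (Kcnk), and auxiliary subunits (Kcnab, Kcne, Kcnip) tune many of them.

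The libraries held 15092619 to 17431546 counts. Csnk1a1 showed no fall in cKO, at 396, 405 and 377 CPM (counts scaled to library size with TMM factors) against 371, 396 and 348 CPM in WT (log2 fold change 0.08, edgeR adjusted p = 0.798). Its whole-gene count in a whole organ does not check the labels, since the deleted part is not given. Of 17 Sertoli cell markers 15 were called lower in cKO, and their summed level was 1343 to 1848 CPM in cKO and 3423 to 4468 CPM in WT. In whole testes, fewer cells of a type and less RNA per cell cannot be told apart, which holds for every difference below.

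Most channel genes were present at low levels. Measured as FPKM, which is corrected for gene length and so can be compared between genes, 43 of the 92 had a WT mean of at least 1 FPKM and 4 a mean of at least 10 FPKM. Kcnk3, an acid-sensitive leak channel of the two-pore-domain family, led in every group at 40.5, 53.0 and 39.6 FPKM in WT and 76.6, 61.9 and 88.7 FPKM in cKO. It made up 18.5 ± 2.30% (SD, n = 3) of the summed FPKM of all 92 genes in WT and 27.5 ± 2.69% in cKO. Next in WT came Kcnh2, the channel known from repolarisation of the heart, at 26.3 ± 1.0 FPKM. Kcnh1, a relative of Kcnh2, followed at 12.7 ± 1.60 FPKM, and Kcne1l, an auxiliary subunit gene, at 10.3 ± 1.21 FPKM. The means of Kcnh1 and Kcne1l differed by less than their summed SDs, so their order in WT is not firm. The sodium-activated channel Kcnt1 (9.21 ± 0.324 FPKM), Kcnd3 (8.97 ± 1.34), the auxiliary subunit Kcnip3 (5.95 ± 0.748), Kcng2 (5.70 ± 1.29) and Kcnk5 (5.31 ± 1.2) were also among the 10 highest, and neighbours among these differed by less than their spread in WT except from Kcnd3 to Kcnip3.

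**Figure D1:**
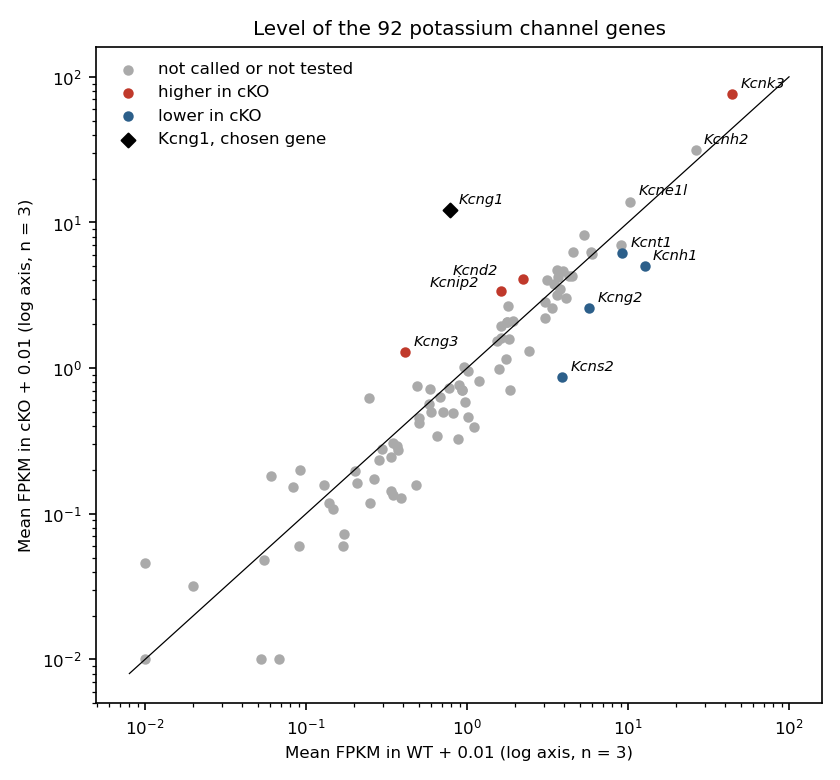
Mean FPKM of each of the 92 potassium channel genes in WT (x axis) and cKO (y axis), both log axes with 0.01 added; the line marks equal levels. Kcnk3 and Kcnh2 were the highest in both groups, and Kcng1 stood farthest above the line.

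At the low end, 16 genes were not tested, with 0 to 62 counts over all 6 libraries. Kcna10 was the one with no count in any library, which allows up to 3 counts, or 0.172 to 0.199 CPM per library (counting error only). The brain-enriched inward rectifier Kcnj6 had 6, 0 and 4 counts in cKO and none in WT. Conversely Kcna4 had 1, 2 and 11 counts in WT and none in cKO. These counts are too small for a comparison. Of the 76 tested genes, Kcnk10 was the one that reached 10 counts in WT libraries only, so it passed the count filter through the group in which it was higher. Rare genes such as Kcnj11, Kcnj5, Kcnj10, Kcnj15, Kcna2 and Kcna3 had at least 10 counts in every WT library but not in every cKO library. They too passed with the help of the group in which they were higher, as Kcnq1 did through cKO.

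Kcng1 was at 68.2, 49.8 and 48.0 CPM in cKO libraries 1, 2 and 3 and at 2.86, 3.39 and 4.31 CPM in WT. The lowest cKO library was thus far above the highest WT library. Its mean was 55.3 ± 11.2 CPM (cKO) and 3.52 ± 0.730 (WT), a 15.7-fold ratio and a fitted log2 fold change of 3.97. By length-corrected level it went from rank 51 of the 92 genes in WT, at 0.772 ± 0.162 FPKM, to rank 4 in cKO, at 12.2 ± 2.45 FPKM. The gene spans positions 179176548 to 179199305 of chromosome 2, minus strand, in the C57BL/6NJ coordinates that the files use, and no other listed gene overlaps it. These values were the reason for choosing the family and support nothing further.

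Among the other 75 tested genes, 4 were called higher and 4 lower in cKO and 67 were not called (edgeR quasi-likelihood test, adjusted p under 0.05 over all 18383 genes tested). That is 10.7% of these genes in either direction, where 3.35% of all tested genes were called. For higher genes it was 5.33% against 1.5%, and for lower genes 5.33% against 1.84%. No set test was made. The higher genes were Kcng3, Kcnip2, Kcnd2 and Kcnk3 and the lower genes Kcns2, Kcnh1, Kcng2 and Kcnt1, so the changes went both ways and touched pore-forming, silent and auxiliary subunits. None of the 8 had groups that overlapped. Among the 75 genes, 8 had all cKO values above all WT values (10.7%, against 10.7% of all tested genes) and 19 had all cKO values below (25.3%, against 10.9%). At an unadjusted p under 0.05, 6 were higher (8.0%, against 7.75%) and 17 lower (22.7%, against 8.03%). Their median log2 fold change was -0.17 (quartiles -0.60 and 0.23), beside 0.00 (-0.23 and 0.21) for all tested genes. Tested channel genes were also less abundant, with a median of 6.53 CPM against 19.2 CPM over all tested genes. The 19 include Kcnk10, Kcnj11, Kcnj5, Kcnj10, Kcnj15, Kcna2 and Kcna3, rare genes that passed the count filter with the help of WT. Kcnk10, Kcnj5, Kcnj15, Kcna2 and Kcna3 are also among the 17. Their place in these counts and in the median is thus partly set by the filter. How many such genes are among all tested genes was not counted.

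The number of calls changed when a library was left out, among channel genes and among all tested genes. Without WT library 1, 0 were higher and 5 lower, without WT library 2 it was 1 and 2, without WT library 3 it was 0 and 2, and without cKO library 3 it was 0 and 2. Without cKO library 2 it was 2 and 5, and without cKO library 1 it was 4 and 4. Of all tested genes, 1.71%, 1.94% and 1.44% were called without WT library 1, 2 and 3, and 3.75%, 3.79% and 1.6% without cKO library 1, 2 and 3.

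**Figure D2:**
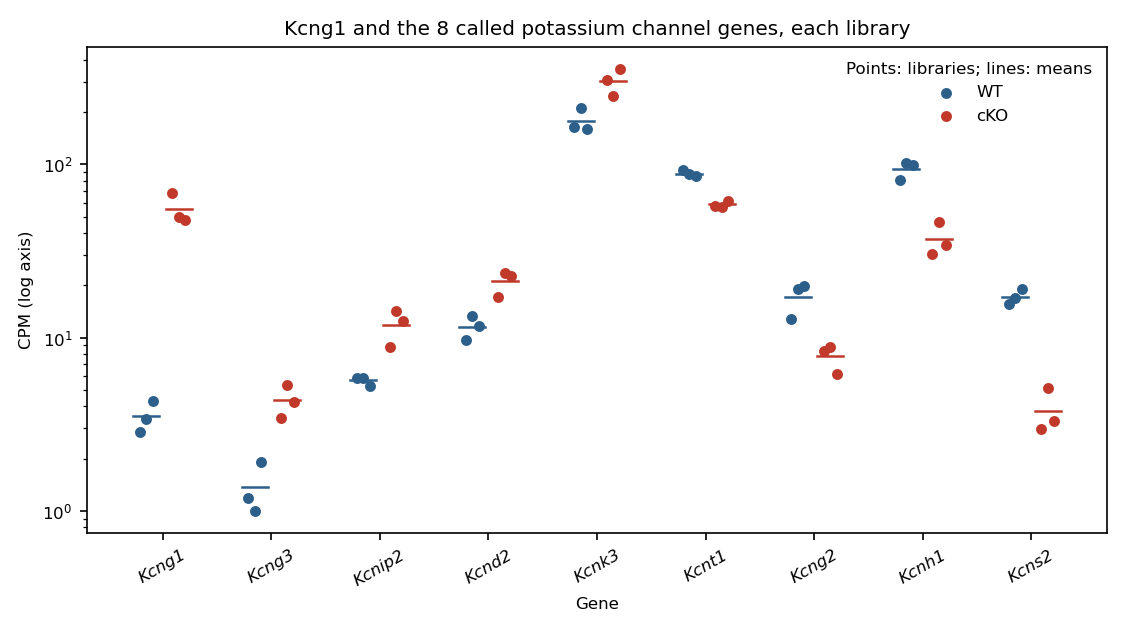
CPM (log axis) of Kcng1 and the 8 called potassium channel genes in each library, WT in blue and cKO in red; lines are means of 3. In every gene shown the 2 groups do not overlap, and the order runs from Kcng1, the largest rise, to Kcns2, the largest fall.

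With Kcng1 set aside, the silent subunits still held the largest differences in both directions, Kcng3 upwards and Kcns2 downwards. The call of Kcng3 was near the threshold. Besides Kcng1, 8 of them were tested, of which 1 was called higher, 2 lower and 5 were not called. Kcns2 was at 2.96, 5.12 and 3.28 CPM (cKO) and 15.7, 17.0 and 19.0 (WT), so every cKO library held less than the lowest WT library by a wide margin. It fell by 2.19 on the log2 scale (SE 0.248, edgeR adjusted p = 0.000607), the deepest fall of any channel gene tested. This call held without any single library, with edgeR adjusted p up to 0.00743. Kcns2 lies on chromosome 15, positions 34430432 to 34435388, plus strand.

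Kcng2 and Kcng3, the relatives of Kcng1, moved in opposite directions. Kcng2 was at 8.36, 8.84 and 6.15 CPM (cKO) and 12.8, 19.0 and 19.9 (WT), and fell by 1.15 on the log2 scale (SE 0.233, edgeR adjusted p = 0.0209). Kcng3 was rare, at 3.42, 5.32 and 4.26 CPM (cKO) and 1.18, 0.998 and 1.91 (WT), and rose by 1.66 (SE 0.383, edgeR adjusted p = 0.0405). Both calls were near the threshold, and Kcng2 is overlapped by the antisense gene Gm26676, with 71 counts in all against 1191. The call of Kcng2 was lost without WT library 2 (edgeR adjusted p = 0.0932), WT library 3 (0.127) or cKO library 3 (0.109). That of Kcng3 held only with cKO library 1 left out, and was lost without WT library 1 (0.171), 2 (0.132) or 3 (0.0622) and without cKO library 2 (0.0777) or 3 (0.129). Kcng4, the remaining relative, stood at 18 ± 3.43 CPM (cKO) and 13.9 ± 4.04 (WT) and was not called (log2 fold change 0.37, 95% confidence interval -0.15 to 0.90).

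The other silent subunits were not called. Kcns3 stood at 13.2 ± 2.33 and 13.3 ± 2.11 CPM in cKO and WT (log2 fold change -0.01, 95% confidence interval -0.46 to 0.45). Kcns1 had a log2 fold change of -0.39 (-0.94 to 0.15), Kcnf1 of -0.64 (-1.77 to 0.48) and Kcnv2 of -0.04 (-0.83 to 0.75). The wide intervals of Kcnf1 and Kcnv2 go with their low levels, at most 1.23 and 2.94 CPM in the mean of a group. The Kv2 gene Kcnb2 stood at 1.66 ± 0.754 and 1.98 ± 0.363 CPM and was not called (log2 fold change -0.26, -1.28 to 0.76).

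As a share of the summed silent-subunit FPKM, Kcng1 was at 49.8, 37.4 and 37.4% in cKO libraries 1, 2 and 3 and at 2.89, 3.14 and 4.06% in WT, a difference that the choice of the family fixes. The summed FPKM of the 8 other silent subunits was 15.1, 18.3 and 17.6 in cKO and 21.0, 23.1 and 22.4 in WT, so every cKO library was below every WT library. With Kcng1 included the order was the opposite, at 29.2 ± 0.938 FPKM (cKO) and 22.9 ± 1.15 (WT). Within the sum of the 8, Kcns2 made up 5.02 ± 1.17% in cKO and 17.6 ± 1.46% in WT, Kcng2 15.3 ± 3.46% and 25.6 ± 4.91%, and Kcng3 7.47 ± 0.982% and 1.82 ± 0.640%. These shares and sums are described without a test.

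Among the remaining voltage-gated channels, Kcnh1 was lower and the Kv4 gene Kcnd2 higher. Kcnh1, which encodes the ether-à-go-go channel, was at 30.6, 46.7 and 34.3 CPM (cKO) and 80.8, 102 and 99.3 (WT). All cKO libraries were well below all WT libraries. It fell by 1.34 on the log2 scale (SE 0.17, edgeR adjusted p = 0.00133), and with any 1 library left out the edgeR adjusted p stayed at or under 0.0164. The gene lies on chromosome 1, positions 205603092 to 205940033, plus strand, and overlaps Hhat on the opposite strand, which had 1244 counts in all against 6253 for Kcnh1, with the strand setting of the counting not given. Its relative Kcnh2 was not called, at 152 ± 12.8 CPM (cKO) and 128 ± 4.74 (WT) (log2 fold change 0.25, 95% confidence interval -0.00 to 0.50). Of the 11 tested Kcnh and Kcnq genes, Kcnh1 was the one called. Kcnq1, with 72, 30 and 14 counts in cKO and 25, 13 and 9 in WT, had the largest positive value (1.34, -0.09 to 2.76), but its groups overlapped, and Kcnq1ot1 on its opposite strand held 3816 counts in all against 163.

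Kcnd2 encodes a pore-forming subunit of the fast, transient Kv4 current, and Kcnip2 a calcium-binding auxiliary subunit of Kv4 channels. Kcnd2 was at 17.2, 23.5 and 22.7 CPM (cKO) and 9.71, 13.4 and 11.6 (WT), and rose by 0.87 on the log2 scale (SE 0.195, edgeR adjusted p = 0.0346). Of the listed genes that overlap Kcnd2, the one with the most counts lies on the same strand, with 112 in all against 1561. Kcnip2 was at 8.82, 14.3 and 12.5 CPM (cKO) and 5.85, 5.85 and 5.26 (WT), and rose by 1.07 (SE 0.238, edgeR adjusted p = 0.0327). In both genes cKO library 1 was the lowest of its group and the nearest to WT. Both calls were kept with cKO library 1 left out and lost without any other. For Kcnd2 the edgeR adjusted p was 0.171, 0.0608 and 0.154 without WT library 1, 2 and 3 and 0.0572 and 0.15 without cKO library 2 and 3. For Kcnip2 it was 0.12, 0.0941, 0.165, 0.0669 and 0.133 in the same order.

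Of the other Kv4 genes neither was called. Kcnd3, the most abundant of them, stood at 68.0 ± 12.2 CPM (cKO) and 87.0 ± 12.8 (WT) (log2 fold change -0.36, edgeR adjusted p = 0.298). Kcnd1 was at 23.0, 23.3 and 17.8 CPM (cKO) and 16.2, 17.8 and 15.9 (WT), where cKO library 3 and WT library 2 nearly met (0.36, edgeR adjusted p = 0.328). Whether the 3 genes differed in their change was not tested. Kcnd2 made up 27.2 ± 5.82% of the summed Kv4 FPKM in cKO and 15.5 ± 1.79% in WT, while that sum was 15.1 ± 1.06 and 14.3 ± 1.53 FPKM. Of 15 tested Kv1 to Kv4 genes only Kcnd2 was called, and 10 of the 15 had negative fold changes (median -0.35). Kcna7 was the uncalled channel gene nearest to the threshold, at 2.46 ± 0.717 CPM (cKO) and 6.47 ± 2.60 (WT) (log2 fold change -1.39, edgeR adjusted p = 0.0833). It was called lower without WT library 1 (edgeR adjusted p = 0.0463), the library with the lowest WT value. The rare Kcna2 and Kcna3, at means of 0.599 and 0.738 CPM (cKO) and 1.91 and 2.09 (WT), had log2 fold changes of -1.66 and -1.49 and were not called (edgeR adjusted p = 0.181 and 0.301).

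Of 11 tested Kv auxiliary subunit genes, Kcnip2 was the one called. Kcne1, whose product is known as a partner of Kcnq1, was at 1.03 ± 0.140 CPM (cKO) and 2.79 ± 0.968 (WT) (log2 fold change -1.43, edgeR adjusted p = 0.116). Kcnip3 stood at 21.7 ± 5.36 and 21.4 ± 2.66 CPM (0.02, 95% confidence interval -0.41 to 0.46), and Kcne1l at 21.7 ± 5.01 and 16.1 ± 1.88 CPM (0.42, -0.01 to 0.86). Kcnip1, with 37, 0 and 14 counts in cKO and 11, 9 and 2 in WT, varied too much between libraries of a group for a direction to be read, and its value went from 1.2 to as low as -0.16 with 1 library left out.

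The sequences at the starts of 4 of the called genes are given because RefSeq promoter windows (GRCm38.p6, 250 bases before to 50 after the annotated start) were at hand for them: the risers Kcng3, Kcnd2 and Kcnip2 and the faller Kcnh1. They lie at chr17:83631846-83632145 (minus strand), chr6:21215096-21215395 (plus), chr19:45816014-45816313 (minus) and chr1:192190527-192190826 (plus). Capitals mark the GC box GGGCGG or its reverse complement CCGCCC.
Kcng3: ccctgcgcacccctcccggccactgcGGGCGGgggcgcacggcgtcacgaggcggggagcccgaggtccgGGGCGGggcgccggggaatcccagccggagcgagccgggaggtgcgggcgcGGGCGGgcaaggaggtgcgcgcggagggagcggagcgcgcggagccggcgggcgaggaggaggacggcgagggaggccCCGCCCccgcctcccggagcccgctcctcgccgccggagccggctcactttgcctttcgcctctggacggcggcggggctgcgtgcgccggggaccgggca
Kcnd2: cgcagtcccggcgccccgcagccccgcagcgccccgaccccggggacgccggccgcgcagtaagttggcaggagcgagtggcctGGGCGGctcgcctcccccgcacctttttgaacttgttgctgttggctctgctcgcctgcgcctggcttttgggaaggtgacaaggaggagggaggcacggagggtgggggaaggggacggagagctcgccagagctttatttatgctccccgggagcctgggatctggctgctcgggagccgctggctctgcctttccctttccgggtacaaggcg
Kcnip2: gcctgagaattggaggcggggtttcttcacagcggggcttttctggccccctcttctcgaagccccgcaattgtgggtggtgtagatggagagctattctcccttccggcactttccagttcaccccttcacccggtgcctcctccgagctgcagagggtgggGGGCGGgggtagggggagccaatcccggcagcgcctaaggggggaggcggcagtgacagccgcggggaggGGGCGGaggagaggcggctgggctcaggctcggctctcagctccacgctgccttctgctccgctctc
Kcnh1: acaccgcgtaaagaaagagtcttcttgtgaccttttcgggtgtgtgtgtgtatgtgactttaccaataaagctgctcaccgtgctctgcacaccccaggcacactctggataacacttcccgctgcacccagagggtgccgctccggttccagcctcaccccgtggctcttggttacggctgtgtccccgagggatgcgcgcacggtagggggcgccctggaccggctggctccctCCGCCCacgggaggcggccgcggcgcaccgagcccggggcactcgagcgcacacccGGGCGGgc
All 4 windows were rich in C and G, at 82% in Kcng3, 68.7% in Kcnd2, 67% in Kcnip2 and 66% in Kcnh1, beside a median of 52.7% over the 32851 mouse windows of the table. Each held a GC box (4, 1, 2 and 2 matches), and none held the TATA box TATAAA, the TCF/LEF words CTTTGAA or CTTTGAT, or the SOX word AACAAT, searched on both strands. Over the 94 windows of the 69 channel genes with an entry, 47.9% held a GC box, 5.32% a TATA box, 4.26% a TCF/LEF word and 6.38% a SOX word. Over all windows these shares were 35.7%, 13.6%, 8.65% and 10.7%. The risers and the faller had the same words present and absent, but 4 windows are too few to compare them. Such matches describe the letters only.

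Among the 11 tested genes of the calcium- and sodium-activated family, where the auxiliary Kcnmb genes and Kcnu1 were also placed, Kcnt1 was the one called. Kcnt1, which encodes a sodium-activated channel, was at 57.7, 57 and 61.9 CPM (cKO) and 92.4, 87.8 and 85.5 (WT). The spread within each group was small, and the groups were clearly apart. It fell by 0.59 on the log2 scale (SE 0.112, edgeR adjusted p = 0.0144). That call was lost at edgeR adjusted p = 0.0867, 0.0657 and 0.0631 without WT library 1, 2 and 3 and at 0.0644 without cKO library 3. The calcium- and sodium-activated family had a median of -0.07, and its members ran from -0.69 to 0.62.

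The leak channel Kcnk3, already the most abundant channel gene, was at 307, 248 and 355 CPM (cKO) and 164, 212 and 159 (WT). The lowest cKO library was above the highest WT library, though WT library 2 came near it. Gm9899 on the opposite strand, with 952 counts in all against 23064, overlaps the gene. It rose by 0.77 on the log2 scale (SE 0.162, edgeR adjusted p = 0.0259). Without WT library 1 or 3 or cKO library 3 the edgeR adjusted p was 0.134, 0.161 and 0.14. Kcnk5, an alkali-sensitive leak channel of this family, stood at 27.9 ± 1.31 CPM (cKO) and 18.1 ± 4.15 (WT) and was not called (0.62, edgeR adjusted p = 0.101). Of 9 tested two-pore-domain genes 1 was called and 6 had negative values. Kcnk10, a stretch-sensitive leak channel gene, was rare, at 0.377 ± 0.103 CPM (cKO) and 1.21 ± 0.658 (WT) (-1.67, edgeR adjusted p = 0.196).

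None of the 10 tested inward rectifiers was called by edgeR, limma-voom or DESeq2 (3 at an unadjusted p under 0.05). Their median was -0.42, with 8 of 10 negative. Kcnj5, a subunit of channels opened by G proteins, had the most negative value, at 0.540 ± 0.271 CPM (cKO) and 1.72 ± 0.252 (WT), without passing the test (-1.67, edgeR adjusted p = 0.143).

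**Figure D3:**
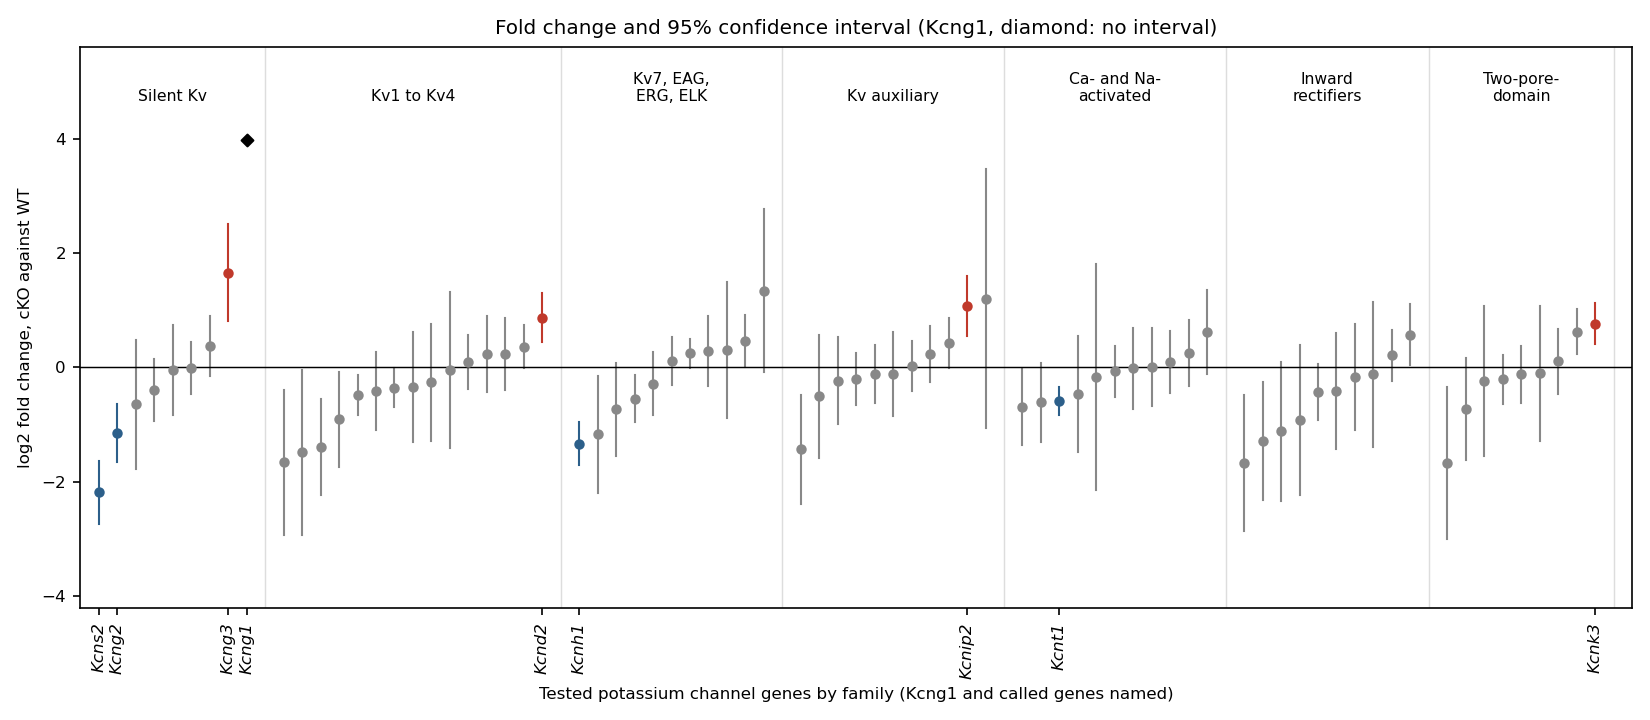
Log2 fold change (cKO against WT) of the 76 tested potassium channel genes by family; points are fitted values, lines 95% confidence intervals, red called higher, blue called lower, grey not called, with Kcng1 and the called genes named. Kcng1 (diamond) has no interval because it was chosen for its rise. The other silent subunits reach from -2.19 (Kcns2) to 1.66 (Kcng3).

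Summed over families, the groups overlapped in 4 of 7 branches. They did not overlap for the silent subunits, in the directions given above with and without Kcng1. They also did not overlap for the two-pore-domain channels, at 95.4 ± 15.1 FPKM (cKO) and 62.7 ± 6.92 (WT), and the calcium- and sodium-activated channels, at 20.0 ± 3.67 FPKM (cKO) and 24.2 ± 1.10 (WT). Kcnk3 made up 79.2 ± 1.60% and 70.5 ± 3.98% of the two-pore-domain sum. In the calcium- and sodium-activated sum, Kcnt1 alone stood at 6.15 ± 0.277 FPKM (cKO) and 9.21 ± 0.324 (WT). The highest cKO sum of that family, 22.2 FPKM, was near the lowest WT sum, 23.3 FPKM. That sum therefore does not show a fall of its other members. All 92 genes summed to 274 ± 27.2 FPKM in cKO and 239 ± 15.3 FPKM in WT. Without Kcng1 the sums were 262 ± 26.2 and 239 ± 15.2 FPKM, and without Kcng1 and Kcnk3 they were 186 ± 14.6 and 194 ± 10.8 FPKM, with groups that overlapped. These sums are described without a test.

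**Figure D4:**
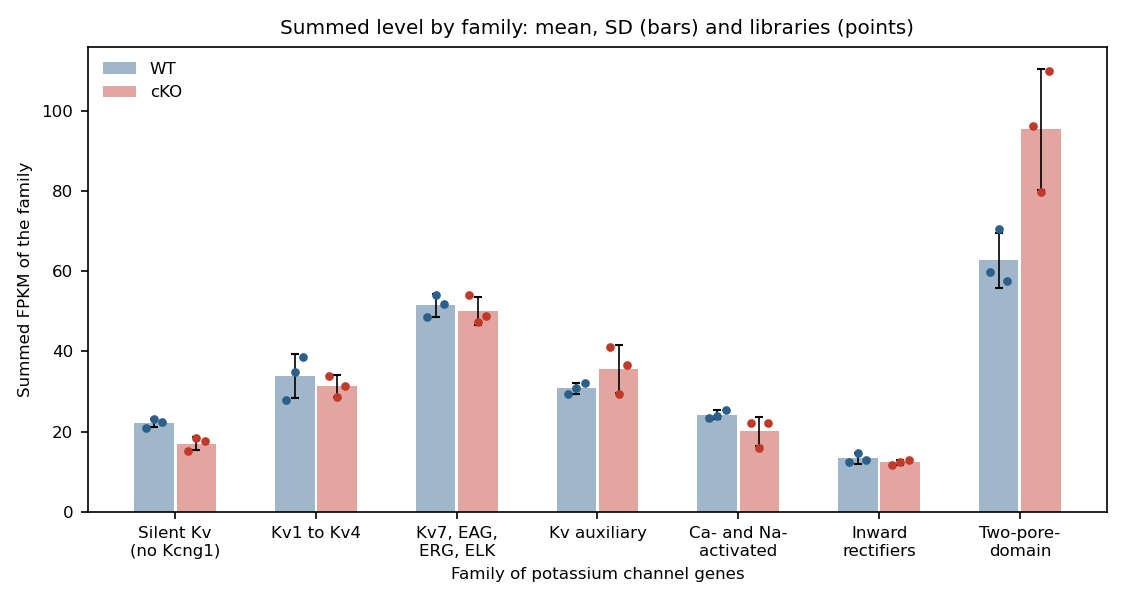
Summed FPKM of each potassium channel family, with Kcng1 left out, in WT (blue) and cKO (red); bars are means of 3 libraries, black lines SD, points libraries. The 3 cKO points lie above the 3 WT points for the two-pore-domain channels, and below them for the silent subunits and the calcium- and sodium-activated channels.

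Of the other genes tied to potassium handling, 2 fell and none rose. The list of channel partners outside the Kcn names (sulfonylurea receptors, Kv4 and large-conductance channel partners, Hcn channels, anchoring proteins) had 0 of 18 tested genes called, with a median of 0.09. None was called by DESeq2 or limma-voom either, 1 had an unadjusted p under 0.05, and its members highest in FPKM, Vapa (-0.20, edgeR adjusted p = 0.451) and Stx1a (0.26, edgeR adjusted p = 0.39), were not called. Among 18 tested pump and cotransporter genes, Atp1b2, a beta subunit of the sodium-potassium pump, stood at 146 ± 31.6 CPM (cKO) and 322 ± 48.7 (WT) and fell by 1.14 on the log2 scale (SE 0.174, edgeR adjusted p = 0.00393). Fxyd6, a pump regulator, was not called (-0.44, edgeR adjusted p = 0.133).

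Markers of cell types that could carry these channels moved as well. Beside the Sertoli list given above, 3 of 8 pregranulosa markers (Foxl2, Wnt4, Runx1) were called higher, with a summed level of 302 to 364 CPM in cKO and 116 to 142 CPM in WT. Of 5 tested Schwann and glial markers 1, Sox10, was called lower, and the 8 genes of that list summed to 34.1 to 40.6 CPM in cKO and 62.8 to 66.0 CPM in WT. Of 9 tested neuron markers 1, Tubb3, was called lower, and the list summed to 118 to 207 and 173 to 204 CPM. The nerve and glial markers Dbh and Foxd3 had means of at most 0.312 CPM in either group. None of 6 fetal Leydig markers was called by edgeR, but all 6 had positive values, 4 of them at an unadjusted p under 0.05, and their sum was 5005 to 6844 CPM in cKO and 3794 to 4497 CPM in WT. Of 7 interstitial progenitor markers 1 was called higher, and all 7 were positive at an unadjusted p under 0.05, with a sum of 3617 to 3962 CPM in cKO and 2257 to 3148 CPM in WT. Kdr, 1 of 7 endothelial markers, and Hba-a1, 1 of 5 erythroid markers, were higher, and none of 7 germ cell, 8 macrophage and 9 smooth muscle and pericyte markers was called by edgeR (1 of each at an unadjusted p under 0.05). The part of these cell types in the channel differences was not tested.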

How the data were processed

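Polyadenylated RNA of 3 cKO and 3 WT testes was sequenced on an Illumina instrument, per the labels' protocols. Per the submitters' processing notes, the tools and build include HISAT2 2.0.5 and GRCm38, but 41096 of 42747 rows carry identifiers of the C57BL/6NJ annotation, so file coordinates are given in that assembly. No source used here names the counter or its strand setting. The authors deposited whole-number counts per gene and FPKM values; the denominator of the deposited FPKM was 0.968 to 1.05 times the count total.

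Genes passing filterByExpr (18383) were fitted in R 4.3.3 with edgeR 4.0.16 (TMM, glmQLFit, glmQLFTest, no covariate), with p-values adjusted by Benjamini-Hochberg over all of them and called under 0.05. Standard errors are the log2 fold change over the square root of F. Median counts of 282 to 329 over all tested genes leave counting error small except in rare genes. Tested channel genes were rarer, at a median of 6.53 CPM against 19.2 CPM, so counting error weighs more on them. The procedure was run on counts simulated from the means and dispersions of these data, a check of the code and not of the calls. No library repeats another: between libraries of a group, chi-square divided by its degrees of freedom was 13.6 to 40.9.

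Members, gene lists and tests were chosen with earlier results of these data known. Text names Kcng1, called members, the 3 uncalled ones nearest the threshold and the 5 largest values each way. It also names the 10 highest in WT and all silent and Kv2 genes. Of other potassium genes it names those called and the 2 highest of each list. Kcnj6, Kcna4, Kcna10, Kcnd1, Kcnj10, Kcnj11 and Kcnj15 were added after their values were seen. A few items the rule names are not reported here. Alternatives were DESeq2 1.42.0, its size factors in edgeR, limma 3.58.1 (voom, or log2 FPKM plus 0.1 or 1), other count filters, a replicate block and leaving out each library. Labels name no batch.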

Additional observations from a re-analysis of the deposited data

How the results depend on the processing

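Kcns2 and Kcnh1 kept their direction in all 14 alternatives and stayed called in each. The value of Kcng1, whose direction was fixed by the choice of the family, was 2.88 on log2(FPKM + 1) and otherwise 3.79 to 4.14. The other 6 calls were lost in 5 to 7 alternatives, all of them fits with 1 library fewer, the limma fits of FPKM or, for Kcng3, the replicate block. Channel genes called higher (4) and lower (4) numbered 0 and 2 on log2(FPKM + 0.1) and 1 and 2 on log2(FPKM + 1), and 5 and 5 by DESeq2 and 5 and 6 with no low-count filter, which both added Kcna7 and Kcnk5 (the latter also Kcnc4). With 1 library left out they ran from 0 to 4 and from 2 to 5. All genes called (615) numbered 1095 by DESeq2, 1264 with no low-count filter, 372 on log2(FPKM + 0.1), 397 on log2(FPKM + 1) and 272 to 723 with 1 library left out. Other potassium genes called higher (0) numbered 1 by DESeq2, 2 with no filter and 0 to 1 with 1 library left out; those called lower (2) numbered 1 in both FPKM fits and 1 to 2 with 1 library left out. The cause was not tested. With the replicate number as a block, 3 channel genes were higher and 4 lower; Kcng3 was lost at edgeR adjusted p = 0.0544, and 696 genes were called in all. Deviations of same-numbered libraries correlated at 0.02, 0.18 and 0.03, so the numbers were not taken as pairs, and not every library correlated best with its own number. Kcnip1 and Kcnk10 had no value in 2 alternatives and Kcnf1 in 1, where a filter or DESeq2 gave none. Depth limits the rare genes.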
